A study of Mus musculus with 2 samples.

Results

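RAB proteins are small GTPases that mark the membranes of the cell and direct vesicles between them. Each RAB is loaded with GTP by an exchange factor, recruits effectors such as tethers and motors to its membrane, and is switched off by a GTPase-activating protein. In mouse oocytes, RAB11A-positive vesicles are known to organise actin for spindle positioning, and RAB27A and RAB3A are linked to the cortical granules that are released at fertilization. The genes described are the RABs and the regulators and effectors named after them, chosen by symbol alone, as RAB followed by a number or as RABEP, RABGAP, RABGEF, RABIF, RABAC or RABL. In all, 71 of the 38817 genes of the table met the rule: 56 GTPases and 15 regulators or effectors.

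The series is titled for spermidine, a natural polyamine, and the maturation of pig oocytes. 2 libraries were used: 1 labelled SPE and 1 labelled control. SPE was read as spermidine from the series title, and was matched on that reading to the column SPD1. The column name is therefore no separate evidence for it. Per the labels each group was a pool of 100 oocytes, and both carried the genotype label WT ICR; no dose or treatment time is given. The labels name the mouse, whereas the table lists genes on pig chromosome accessions, so the genes are described here as pig gene models. The column names and numbers alone tie each library to its sample. The table has 2 more columns, Con2 and SPD2, which by their names may be second libraries of the same groups. They match no labelled sample and were not analysed here, so each group is represented by 1 library, with no replicate error and no test. Every difference below compares these 2 libraries, and whether it holds in Con2 and SPD2 is not known. In pooled oocytes, fewer cells with a transcript and less of it per cell cannot be told apart.

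Values are FPKM, fragments scaled to transcript length and to the mapped fragments of the library, as the authors deposited them. They can be ordered between genes because of the scaling to length, as far as the gene models are complete, which was not checked. The columns summed to 251829 FPKM in the SPE library and 249340 FPKM in the control library, and no read counts were available, so the depth behind each value is unknown. Oocyte markers were present, with 13 of 14 above 0 in the SPE library and 14 of 14 in the control library. They summed to 2557 and 2718 FPKM in the SPE and control libraries. The germ cell gene DDX4 was listed at 0 in the SPE library and at 0.00694 FPKM in the control library. Of 15 granulosa and cumulus markers found, 11 were above 0 in each library, and the list summed to 12.2 FPKM in the SPE library and 29.3 FPKM in the control library. AMH, LHCGR and TNFAIP6 of this list were at 0 in both. The higher sum in the control came mostly from INHBB (1.28 FPKM in SPE, 10.8 FPKM in control) and INHBA (5.55 and 9.87 FPKM in the same order). All 4 markers of this list with a mean of at least 1 FPKM were lower in the SPE library. Below that mean the directions were mixed. CYP19A1, PTGS2 and FOXL2 were higher in the SPE library, and STAR, CYP11A1, INHA, FSHR and PTX3 were lower. With 1 FPKM added to both values, INHBB and HSD3B1 (0.111 FPKM in SPE, 1.90 FPKM in control) were lower by 2-fold or more. Of all genes with such a mean, 2.14% were. Markers of theca, stroma and endothelium summed to 0.470 and 0.385 FPKM, and blood and immune markers to 0.0242 and 0.395 FPKM, each in SPE and then control. The part of any somatic RNA in the RAB values was not tested.

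Averaged over the 2 libraries, 25 of the 71 genes (35.2%) reached 1 FPKM, and these are called the analysed genes. Among the 14851 other genes with an established symbol the share was 20.2%. A further 32 genes were above 0 in at least 1 library but below that mean, and 14 (19.7%) were listed at 0 in both, against 30.98% of the other genes with an established symbol. The endosomal GTPases RAB15, RAB7A, RAB22A and RAB35 were the highest. These 4 genes held 55.4% of the summed RAB family FPKM in the SPE library and 59.4% in the control library. The whole family summed to 143.0 FPKM in the SPE library and 159.6 FPKM in the control library, which is 0.0568% and 0.0640% of each library's total.

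**Figure D1:**
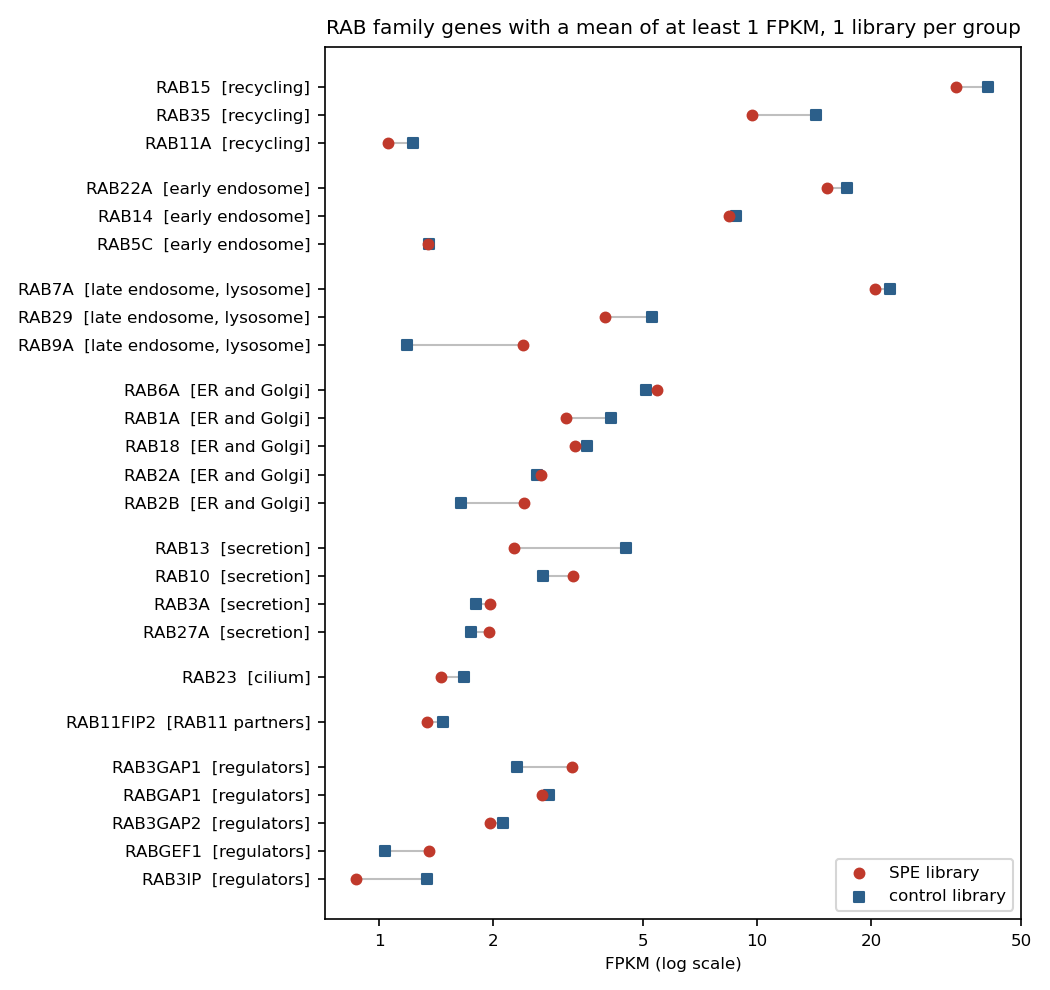
FPKM (horizontal axis, log scale) of the 25 analysed RAB family genes, grouped by transport step. Circles are the SPE library and squares the control library, 1 library each; RAB15 stands at the top of the range (33.7 and 40.8 FPKM), and the pairs of points lie furthest apart for RAB9A and RAB13.

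The comparison implied by the series title sets oocytes matured with spermidine against control oocytes. None of the 25 analysed RAB genes was 2-fold apart in log2(FPKM + 1). Of all 4391 genes analysed, 2.85% were higher in the SPE library by 2-fold or more and 2.14% lower, so a count of 0 in 25 is near this background. Of the 25 genes, 9 had a higher value in the SPE library and 16 a lower one, beside 1957 higher and 2434 lower among all 4391 genes. Their median log2 ratio of SPE to control was -0.08, against -0.04 over all 4391 genes. The pseudocount of 1 FPKM understates the differences of low genes.

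At a lower rule of 1.5-fold on the same scale, RAB9A was higher in the SPE library and RAB13 lower, which is 1 of 25 in each direction. The background at 1.5-fold was 7.54% higher and 5.67% lower over all 4391 genes. Set against genes of a similar level, 22 of the 25 RAB genes had log2 ratios inside the middle 80% of all genes. The 3 outside were RAB9A among genes of 1 to 3 FPKM, where the 10th and 90th percentiles of the log2 ratio were -0.43 and 0.56, RAB13 among genes of 3 to 10 FPKM (-0.42 and 0.49), and RAB35 among genes of 10 to 50 FPKM (-0.35 and 0.35). These percentiles describe how genes differ from each other here and give no error for a single gene.

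**Figure D2:**
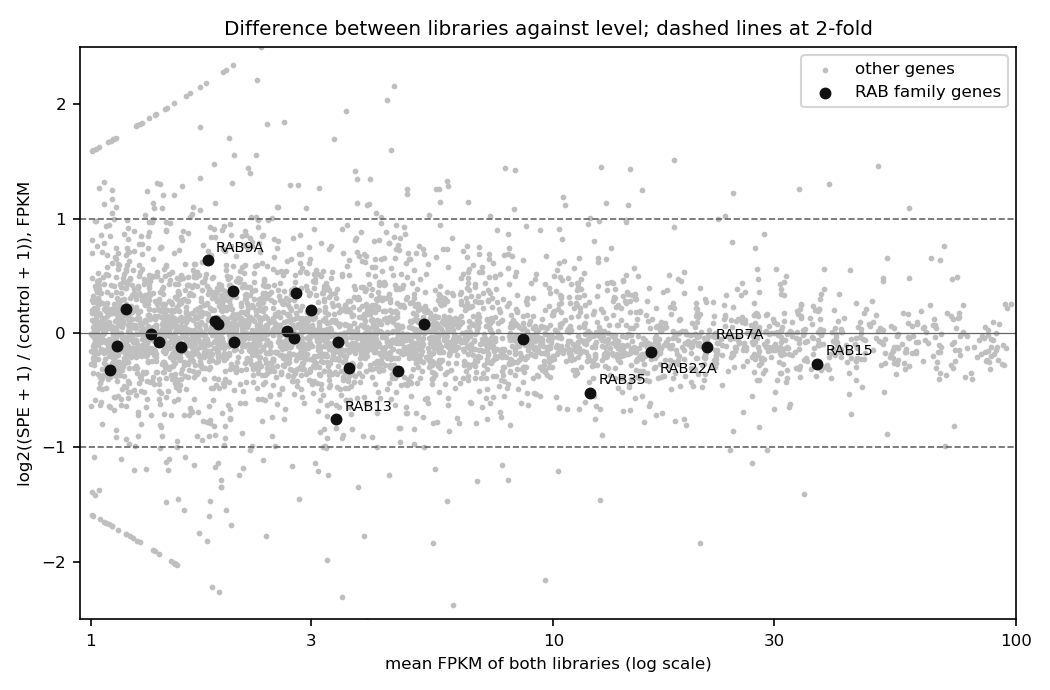
Log2 ratio of SPE to control, with 1 FPKM added to both, against the mean FPKM of both libraries (log scale) for the analysed genes; grey points are other genes and black points the 25 RAB family genes. All black points lie between the dashed lines at 2-fold, with RAB9A (0.64) as the uppermost and RAB13 (-0.75) as the lowest; 157 other genes fall outside the axes.

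The recycling endosome group, whose RABs return endocytosed receptors to the plasma membrane, held the highest gene of the family. RAB15, which acts in the endocytic recycling of receptors, was at 33.7 FPKM in the SPE library and 40.8 FPKM in the control library, a log2 ratio of -0.27. It ranked 365 among all genes of the table by its mean. Its locus on chromosome 7, from 95395973 to 95402824 in the coordinates of the table (the build is not given here), is overlapped by no other gene of the table.

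RAB35, a GTPase of fast recycling and of cytokinesis, was at 9.67 FPKM in the SPE library and 14.3 FPKM in the control library (log2 ratio -0.52). Its locus on chromosome 14 (42566890 to 42703619) is listed with the same coordinates for CCDC64, so it may be wider than RAB35 itself. How reads were divided between the 2 genes is not given. RAB11A, the RAB of the recycling compartment, was far lower, at 1.06 FPKM in the SPE library and 1.23 FPKM in the control library. All 3 analysed recycling genes had lower values in the SPE library, as did 2434 of all 4391 genes analysed. The 7 genes of the group summed to 44.8 FPKM in the SPE library and 56.4 FPKM in the control library, most of it from RAB15 and RAB35. RAB4A, RAB4B, RAB11B and RAB25, the other 4, reached at most 0.172 FPKM, for RAB4B in the SPE library.

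At the early endosome, RAB22A, which sorts cargo leaving this compartment, was at 15.3 FPKM in the SPE library and 17.3 FPKM in the control library. RAB14, which works between the trans-Golgi network and endosomes, was at 8.45 FPKM in the SPE library and 8.77 FPKM in the control library. The loci of RAB22A and RAB14 are each shared with another gene of the table. RAB5C, of the RAB5 subfamily that drives early endosome fusion, was at 1.35 FPKM in SPE and 1.36 FPKM in control. These 3 genes were close between the libraries, with log2 ratios of -0.17, -0.05 and -0.005. RAB21, also of early endosomes and under the mean of 1 FPKM, was at 0.973 FPKM in SPE and 0.489 FPKM in control. RAB5B was at 1.07 FPKM in the SPE library and 0.220 FPKM in the control library, 4.87-fold higher without a pseudocount. Its gene model spans 3504 bases on an unplaced scaffold.

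Among RABs of late endosomes and lysosomes, RAB7A, which governs late endosome maturation and fusion with lysosomes, was the second highest gene of the family. It was at 20.6 FPKM in the SPE library and 22.5 FPKM in the control library (log2 ratio -0.12), over a locus on chromosome 13 (79450127 to 79456601) that no other gene overlaps. RAB29, a partner of the kinase LRRK2, was at 3.97 FPKM in SPE and 5.26 FPKM in control (-0.33). RAB9A, which carries mannose 6-phosphate receptors from late endosomes to the trans-Golgi network, was at 2.40 FPKM in the SPE library and 1.18 FPKM in the control library. Its log2 ratio was 0.64, and without a pseudocount its value was 2.03-fold higher in SPE. No other analysed gene of the family reached 2-fold without a pseudocount. RAB24, an atypical RAB linked to autophagy, was at 0.290 FPKM in SPE and 0.975 FPKM in control, over a locus shared with NSD1. RAB7B and RAB9B were listed at 0 in both libraries, and RAB32 and RAB38 reached at most 0.132 FPKM, for RAB32 in the SPE library.

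Along the path from the endoplasmic reticulum through the Golgi, 5 of 16 genes reached a mean of 1 FPKM. RAB6A, the RAB of transport within and out of the Golgi, was at 5.43 FPKM in the SPE library and 5.09 FPKM in the control library. RAB1A, which is needed for transport from the endoplasmic reticulum to the Golgi, was at 3.13 FPKM in SPE and 4.11 FPKM in control (log2 ratio -0.31). Its locus is shared with CEP68. RAB18, linked to lipid droplets and the endoplasmic reticulum, was at 3.29 FPKM in SPE and 3.54 FPKM in control. RAB2A and RAB2B act at the border of the Golgi. RAB2A was at 2.68 FPKM in SPE and 2.62 FPKM in control, and RAB2B at 2.41 FPKM in SPE and 1.64 FPKM in control (0.37). The group as a whole was nearly level, with a sum of 18.3 FPKM in the SPE library and 18.6 FPKM in the control library. RAB33B, the Golgi RAB that binds an autophagy complex, was the highest gene under the mean of 1 FPKM, at 0.609 FPKM in SPE and 0.964 FPKM in control.

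In the secretory group, 4 of 12 genes reached a mean of 1 FPKM. RAB13, known from the delivery of proteins to cell junctions, was at 2.27 FPKM in the SPE library and 4.51 FPKM in the control library (log2 ratio -0.75). Without a pseudocount RAB13 was 1.98-fold lower in SPE, just short of 2-fold. RAB10, a RAB of exocytosis, was at 3.27 FPKM in SPE and 2.71 FPKM in control. The 2 genes linked to cortical granules in the mouse ranked 17 and 18 among the 71 genes by mean. RAB3A was at 1.96 FPKM in SPE and 1.80 FPKM in control, and RAB27A at 1.95 FPKM in SPE and 1.75 FPKM in control (log2 ratios 0.08 and 0.10). RAB8B and RAB8A, which guide vesicles to the cell surface, reached at most 0.666 FPKM, for RAB8B in the SPE library.

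**Figure D3:**
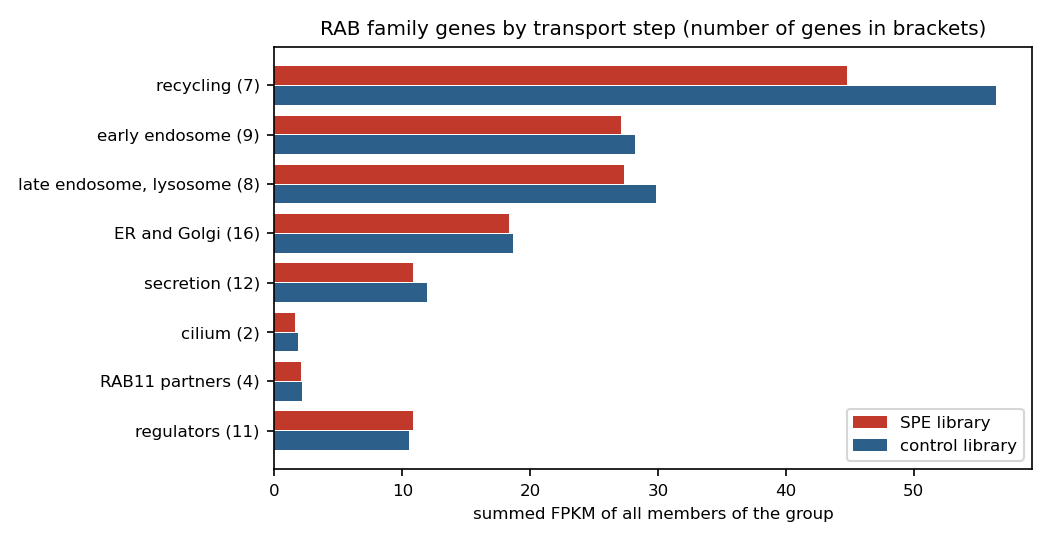
Summed FPKM of all members of each transport group, SPE library above the control library, 1 library per bar. The recycling group is the highest (44.8 FPKM in SPE, 56.4 FPKM in control), and the regulators are the 1 group whose bar is longer in the SPE library.

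Among genes of the cilium, RAB23, a negative regulator of hedgehog signalling, was at 1.46 FPKM in the SPE library and 1.68 FPKM in the control library. RAB11FIP2, an adaptor that couples RAB11 to myosin V, was at 1.34 FPKM in SPE and 1.47 FPKM in control. RAB11FIP1, another RAB11 partner, was at 0.716 FPKM in SPE and 0.678 FPKM in control. Their differences were small, with log2 ratios between -0.13 and 0.03.

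Of 11 regulators and other effectors named for RAB, 5 reached a mean of 1 FPKM. RAB3GAP1 and RAB3GAP2 form the complex that inactivates RAB3 and also acts as exchange factor for RAB18. RAB3GAP1, its catalytic subunit, was at 3.23 FPKM in the SPE library and 2.32 FPKM in the control library (log2 ratio 0.35). RAB3GAP2, the other subunit, was at 1.96 FPKM in SPE and 2.13 FPKM in control (-0.08). Thus the 2 subunits of 1 complex had values on opposite sides of 0. RABGAP1, a GTPase-activating protein, was at 2.70 FPKM in SPE and 2.81 FPKM in control, over a locus shared with GPR21. RABGEF1, the RAB5 exchange factor also called Rabex-5, was at 1.35 FPKM in SPE and 1.03 FPKM in control. RAB3IP, the RAB8 exchange factor also called Rabin8, was at 0.871 FPKM in SPE and 1.33 FPKM in control (-0.32). The rabaptins RABEP1 and RABEP2 bind RAB5 together with RABGEF1. RABEP2 was at 0.326 FPKM in SPE and 0.698 FPKM in control, over a locus shared with ATP2A1, and RABEP1 was at 0.0285 FPKM in SPE and 0.00370 FPKM in control.

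Within subfamilies of close relatives, 1 member carried most of the FPKM in both libraries in several cases. RAB6A held 96.8% of the RAB6A and RAB6B sum in the SPE library and 97.0% in the control library. RAB27A held 98.2% of the RAB27A and RAB27B sum in SPE and 97.8% in control, and RAB11A 87.8% of the RAB11A and RAB11B sum in SPE and 97.5% in control. RAB1A, RAB7A, RAB9A, RAB22A and RAB33B stood beside a relative listed at 0 in both libraries, namely RAB1B, RAB7B, RAB9B, RAB31 and RAB33A. The RAB2 pair was more even, with RAB2A at 52.6% of their sum in SPE and 61.5% in control. RAB5C held 55.7% of its sum with RAB5B in SPE and 86.0% in control, while RAB5A was listed at 0 in both. The leading member of the RAB4 pair differed between the libraries: RAB4A held 30.4% of the RAB4A and RAB4B sum in SPE and 100% in control, where RAB4B was listed at 0, although neither gene exceeded 0.172 FPKM. Close relatives can share reads, and how the authors' counting divided such reads is not given, so these shares are uncertain.

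**Figure D4:**
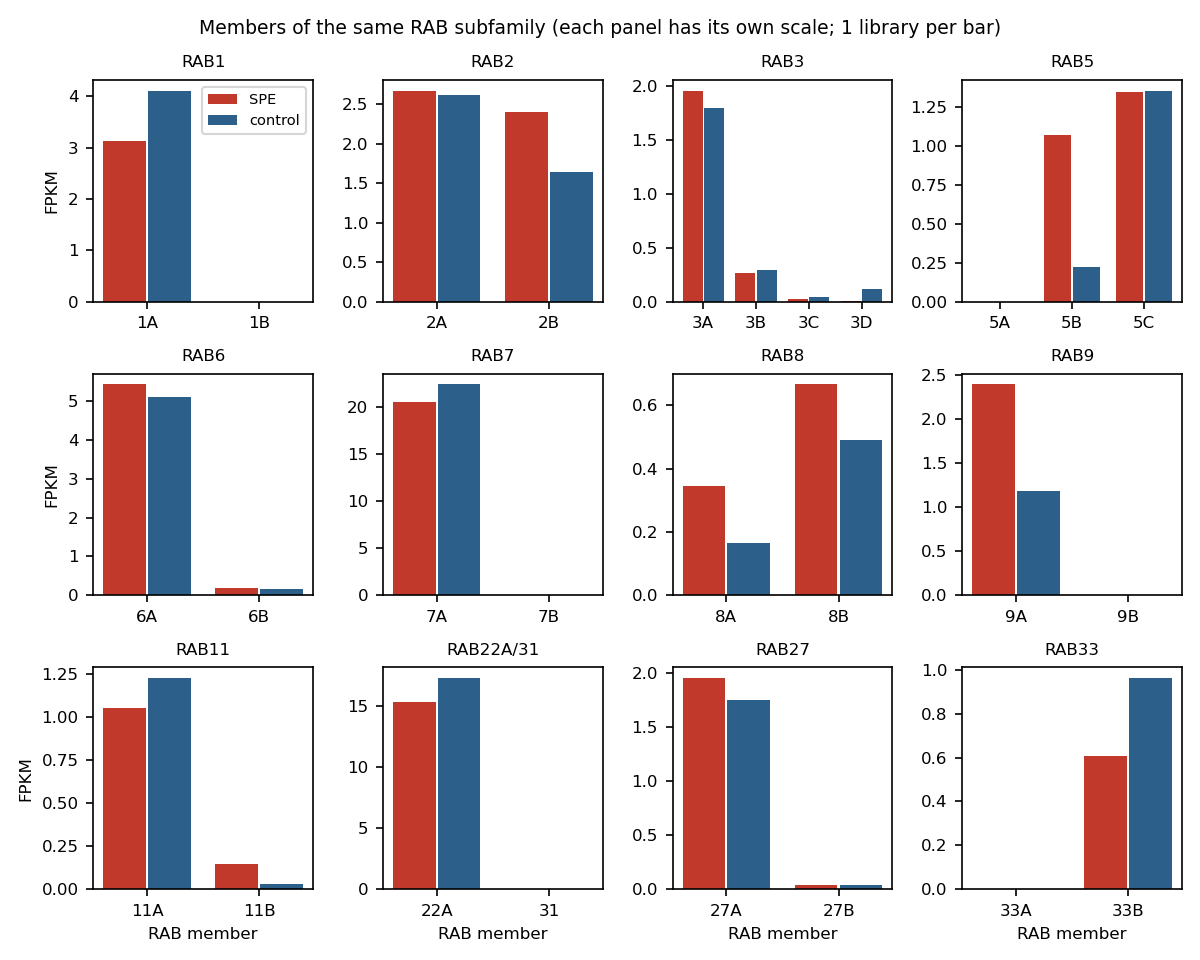
FPKM of the members of 12 RAB subfamilies, SPE library left of the control library for each gene, with 1 library per bar and a separate scale in each panel. Most panels have 1 tall pair of bars. The RAB2 panel has more than 1, RAB5B adds a tall bar for the SPE library alone, and RAB8A stands beside the taller RAB8B.

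14 genes were listed at 0 FPKM in both libraries. They were RAB1B, RAB5A, RAB7B, RAB9B, RAB17, RAB31, RAB33A, RAB34, RAB39B, RAB40B, RAB42, RAB44, RAB3IL1 and RABIF. RAB1B and RAB5A are in general use in cells, so a listed 0 can be a failed estimate and is not read as absence. The RAB5A model lies on an unplaced scaffold, as do those of RAB5B, RAB11FIP1 and RABL3. Another 5 genes were at 0 in the control library alone and 2 in the SPE library alone. Over all 38817 genes it was 3051 in the control library alone and 1576 in the SPE library alone. The SPE library had more genes above 0 in general, 16031 against 14556. Among the RAB genes, the highest value opposite a 0 in the other library was 0.347 FPKM, for RAB19 in the control library.

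Of the 32 genes below a mean of 1 FPKM but above 0, 7 lay from 0.5 to 1 FPKM and 25 lower. The 25 included RAB3B (0.263 FPKM in SPE, 0.292 FPKM in control), RAB30 (0.430 FPKM in SPE, 0.0494 FPKM in control), RABAC1 (0.274 FPKM in SPE, 0.134 FPKM in control), RAB28 (0.178 FPKM in SPE, 0.180 FPKM in control) and RAB3D (0.00913 FPKM in SPE, 0.116 FPKM in control). These 5 were chosen after their values were seen. Low genes differed more often without a pseudocount, as genes of that level did in general. Of the 11 RAB genes above 0 in both libraries with a mean under 0.1 FPKM, 6 (54.5%) differed by at least 2-fold, against 45.8% of 3607 genes of that level. Between 0.1 and 1 FPKM it was 6 of 14 (42.9%), against 28.7% of 5055 genes. At 1 FPKM or more it was 1 of 25 (4%), against 8.48% of 4318 genes.

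The genes that load, switch and read RAB proteins but do not meet the symbol rule were taken from 6 lists. Of 186 genes listed, 158 were found and 36 reached the same mean. None of these 36 was 2-fold apart in log2(FPKM + 1), beside the background of 2.85% higher and 2.14% lower. Their median log2 ratio was -0.10, against -0.04 over all 4391 genes. Of the 36, 10 had higher and 26 lower values in the SPE library, beside 1957 higher and 2434 lower among all 4391 genes.

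For prenylation and extraction from membranes, 4 of 13 genes found were analysed (median log2 ratio -0.21). GDI2, which extracts inactive RABs from membranes, was at 11.6 FPKM in the SPE library and 11.1 FPKM in the control library. RABGGTB, the catalytic subunit of the enzyme that prenylates RABs, was at 1.37 FPKM in SPE and 1.85 FPKM in control. Exchange factors had 11 of 36 genes analysed (median -0.07), and the highest by the mean of both libraries was TRAPPC3, a core subunit of the TRAPP complex that activates RAB1, at 8.45 FPKM in SPE and 9.27 FPKM in control. Further TRAPP subunits lay on both sides of 0. TRAPPC4 was at 9.19 FPKM in SPE, above TRAPPC3 there, and 5.65 FPKM in control (log2 ratio 0.62). TRAPPC6B was at 6.07 FPKM in SPE and 2.96 FPKM in control (0.84), and TRAPPC1 at 2.86 FPKM in SPE and 6.47 FPKM in control (-0.95). These last 3 genes were chosen after their values were seen.

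TBC domain proteins, the main GTPase-activating proteins of RABs, had 7 of 35 genes analysed (median -0.04), led by TBC1D14 at 11.1 FPKM in the SPE library and 12.5 FPKM in the control library. Endosomal effectors and tethers had 5 of 27 analysed (median -0.25). Their highest was OCRL, a phosphoinositide phosphatase that binds several RABs, at 4.17 FPKM in SPE and 5.99 FPKM in control. Golgi effectors and tethers had 6 of 21 analysed (median -0.22), led by KIF20A, a kinesin that binds RAB6 and also acts in cell division, at 26.2 FPKM in SPE and 30.8 FPKM in control. The exocyst, myosin V and secretory effectors had 3 of 26 analysed (median -0.004). SYTL4, a RAB27 effector also called granuphilin, was their highest, at 2.16 FPKM in SPE and 2.17 FPKM in control.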

How the data were processed

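RNA sequencing of oocyte pools gave 1 SPE library and 1 control library that match labelled samples. Libraries were made with a NEB Ultra kit from 100 oocytes a group and run on an Illumina instrument, per the labels' protocols. The authors deposited FPKM values, as the file is named. The submitters' processing notes list Bowtie2 2.2.5, RSEM and mm9, although the loci lie on pig accessions, and neither build nor annotation of the table is stated. Columns were matched to samples by name and number. 2 further columns of per-sample values, Con2 and SPD2, matched no labelled sample and were not used, although they may be second replicates.

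Ratios were log2((SPE + 1) / (control + 1)) in genes averaging 1 FPKM or more, with a size rule of 2-fold and no test. FPKM is relative, so a group of genes that takes more of a library lowers the rest. Of the 71 loci, 27 are listed with the same coordinates for another gene of the table, and 9 of these belong to analysed genes. A shared locus may therefore be wider than the RAB gene itself. The 9 are RAB35, RAB1A, RABGAP1, RAB22A, RAB14, RAB18, RAB10, RAB2A and RAB3GAP2. Start positions were raised by 1.

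Named genes were all members with a mean of at least 1 FPKM, the 5 highest below it, those at least 2-fold apart with 0.5 FPKM or more in 1 library, those at 0 in both, and the highest of each companion list; others were added after their values were seen. The members and lists were chosen with earlier results of these data known. Alternatives covered pseudocount, filter, scaling and fold rule. The calculation was tested on simulated data. Python 3.11.15, pandas 2.3.3 and numpy 2.4.6 were used.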

Additional observations from a re-analysis of the deposited data

How the results depend on the processing

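The main counts were 0 RAB genes at least 2-fold higher and 0 at least 2-fold lower. They were also 0 with a pseudocount of 0.1 FPKM and with no filter. Centring and upper quartile scaling gave 0 as well, but shifted the ratios too little to bring any RAB gene to 2-fold. A pseudocount of 5 FPKM, a minimum mean of 10 FPKM, a 4-fold rule and the 16 genes that no other gene overlaps (chosen after seeing the data) could give nothing but 0 here, so they say nothing of stability. Without a pseudocount 1 of 25 genes was higher (RAB9A), beside 221 higher and 145 lower of 4318 genes above 0 in both libraries. On the TPM scale, where the same pseudocount and filter weigh less and 34 genes were analysed, 1 was higher (RAB5B) and 1 lower (RAB24). Of all 7712 genes analysed on that scale, 612 were higher and 444 lower. At 1.5-fold 1 of 25 was higher and 1 lower, beside 331 higher and 249 lower of all 4391 genes. The median log2 ratio stayed below 0 in all settings, between -0.003 with no filter and -0.22 at a mean of at least 10 FPKM, where 4 genes remained in the count. Of 150 values of single genes under other settings, 148 kept their sign and lay within 1.5-fold of the reported one. A change of pseudocount cannot change a sign, and centring or scaling could reverse only ratios near 0. The kept signs therefore say little of stability. RAB5C reversed to 0.032 when centred on the median of all genes, and RAB2A to -0.020 with upper quartile scaling. No paired analysis was possible because only Con1 and SPD1 match labelled samples, which leaves 1 library per group with Con2 and SPD2 unused. For the same reason no library was left out. Over all genes, the 2-fold counts were 125 higher and 94 lower of 4391 genes. Of the same 4391 they became 238 and 168 with a pseudocount of 0.1 FPKM, and 23 and 15 with a pseudocount of 5 FPKM. They were 612 and 444 of 7712 genes on the TPM scale, and 226 and 158 of 17607 genes with no filter. Counts with different totals are not directly comparable. Depth limits the low genes, and its size per gene is unknown.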

Other observations

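Some low RAB values of the 2 libraries stood to each other in ratios of small whole numbers, about as often as those of all genes in the same range. In the 5128 genes whose values both lay from 0.005 to 0.3 FPKM, SPE divided by control was most often 1.026. Of 15 RAB genes in that range, 6 (40.0%) had a ratio within 0.1% of 1.026 times a ratio of 2 whole numbers up to 9, and 37.9% of all 5128 genes did. RABL3 was at 1 to 9 (0.00607 FPKM in SPE, 0.0533 FPKM in control), RAB11B at 9 to 2 (0.146 FPKM in SPE, 0.0316 FPKM in control) and RABEPK at 7 to 2 (0.0885 FPKM in SPE, 0.0246 FPKM in control), each SPE to control. RAB4A stood at 6 to 7, RAB37 at 4 to 5 and RAB11FIP5 at 1 to 1. The windows around these 55 ratios cover 2.503% of the range from 1:9 to 9:1 on a log scale. The numbers are in lowest terms, so the fragments behind each value could be any multiple of them, and they give no count.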
